A study of Mus musculus with 12 samples.

Results

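Phgdh, Psat1, Psph, Shmt1, Shmt2, Mthfd1, Mthfd2, Mthfd1l and Tyms encode enzymes that make serine, take one-carbon units from it onto folate and spend them on thymidylate. They were taken by symbol, 9 of the 24107 genes measured by RNA sequencing in mouse bone marrow cells, and all 9 were among the 11462 genes tested. Mthfd1, the cytosolic folate enzyme, was 7.09-fold lower in leukemic than in control MEP (megakaryocyte-erythroid progenitors, which give rise to platelets and red cells) and 3.24-fold lower in leukemic than in control marrow. Shmt2 and Mthfd2, which encode mitochondrial enzymes, also fell in leukemic MEP, by 0.72 and 0.76 on the log2 scale, calls each lost in 2 of 20 alternative settings. The other mitochondrial gene, Mthfd1l (-0.79 in MEP), did not pass the test in either population. Nor did Shmt1, Tyms and the serine synthesis genes, of which Phgdh was at -0.60 in MEP. Whether the genes that passed differ from those that did not was not tested.

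The 12 libraries were from C57BL/6 mice, in 4 groups of 3. Control MEP (Ctrl-MEP) and unselected control marrow (Ctrl-Bulk) were wild type. Leukemic MEP (L-MEP) and GFP+ marrow cells (Prdm16s-Bulk) carried Prdm16s and were taken from recipients with leukemia. The controls were not recipients, so Prdm16s, leukemia and being a recipient cannot be told apart, and in marrow selection for GFP also goes with the leukemic group. The sources used here do not give age or the way Prdm16s was introduced. They also do not state whether replicates were separate animals, so the spread behind the p-values may be technical. In the leukemic groups, whose libraries were of both sexes (below), it may be so in part.

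Serine is built from a glycolytic intermediate by PHGDH, PSAT1 and PSPH, which act in that order. Serine hydroxymethyltransferase, SHMT2 in mitochondria and SHMT1 in the cytosol, moves a carbon from serine to tetrahydrofolate. In mitochondria MTHFD2 and MTHFD1L turn the carbon into formate, which leaves for the cytosol, and there MTHFD1 loads it back onto folate for purine and thymidylate synthesis. TYMS uses methylene-tetrahydrofolate to make thymidylate for DNA, and dividing blood progenitors, red cell precursors above all, are known to be sensitive to loss of folate.

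All 9 genes matched the RefSeq promoter table (GRCm38.p6). The 250 bases before the transcription start are printed, 5′ to 3′, for the 3 genes that fell in leukemic MEP and for Shmt1, which lay on the other side of its controls there. Capitals mark CCAAT or its reverse complement ATTGG.
Mthfd1, chr12:76254982-76255231, plus strand: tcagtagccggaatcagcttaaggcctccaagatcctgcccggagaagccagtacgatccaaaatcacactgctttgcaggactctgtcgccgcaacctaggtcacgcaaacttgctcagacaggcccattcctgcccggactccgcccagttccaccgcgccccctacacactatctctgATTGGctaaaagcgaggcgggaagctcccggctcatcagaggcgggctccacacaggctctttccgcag
Shmt2, chr10:127522445-127522694, minus strand: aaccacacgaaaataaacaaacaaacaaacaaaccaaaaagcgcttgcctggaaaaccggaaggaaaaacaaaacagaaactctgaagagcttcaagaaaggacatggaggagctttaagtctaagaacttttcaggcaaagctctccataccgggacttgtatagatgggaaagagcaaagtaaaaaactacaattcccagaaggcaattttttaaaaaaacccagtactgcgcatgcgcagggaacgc
Mthfd2, chr6:83317605-83317854, minus strand: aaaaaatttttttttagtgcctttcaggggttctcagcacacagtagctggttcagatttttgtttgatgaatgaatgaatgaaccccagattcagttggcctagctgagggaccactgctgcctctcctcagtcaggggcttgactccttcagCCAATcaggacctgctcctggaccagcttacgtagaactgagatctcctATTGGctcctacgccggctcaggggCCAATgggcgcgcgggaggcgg
Shmt1, chr11:60811266-60811515, minus strand: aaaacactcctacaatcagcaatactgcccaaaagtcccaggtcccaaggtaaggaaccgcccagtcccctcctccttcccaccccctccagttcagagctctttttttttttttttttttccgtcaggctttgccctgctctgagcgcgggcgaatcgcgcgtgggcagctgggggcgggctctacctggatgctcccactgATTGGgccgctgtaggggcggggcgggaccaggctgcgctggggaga
On either strand, CCAAT was found in the windows of 6 of the 9 genes, Phgdh, Psat1 (the first of its 2 listed starts), Psph, Shmt1, Mthfd1 and Mthfd2, and in 33.8% of 32851 promoters. It was present in the Mthfd1 and Mthfd2 windows, which belong to genes that fell, and in that of Shmt1, and not in that of Shmt2. The E-box CACGTG, which overlaps none of the other motifs searched here, was in the window of Tyms alone and in 6.02% of all promoters. The GATA letters AGATAA, the C/EBP-ATF letters TGATGCAA and the E2F letters TTTGGCGC and TTTCGCGC, read on both strands, matched no window of the 9 genes, against 9.99%, 0.791%, 0.417% and 0.256% of all promoters. A match here is a run of letters and not a bound site.

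The libraries were uneven. Whole reads behind the deposited FPKM values (fragments per kilobase of gene, scaled for depth) came to 6.72 to 8.77 M in control MEP and 7.17 to 8.99 M in control marrow. Leukemic MEP 1, 2 and 3 held 9.71, 7.22 and 0.572 M reads, and GFP+ marrow 1, 2 and 3 held 7.03, 1.15 and 9.44 M. A member gene therefore rested on 21 to 122 reads in leukemic MEP 3 and on 39 to 203 in GFP+ 2, but on 105 to 10025 in the other 10 libraries. Prdm16 read at most 0.957 FPKM in control libraries and 6.35 to 15.3 in Prdm16s libraries. Leukemic MEP 3 stood apart. Its 6 erythroid markers summed to 86.2 FPKM, against 576 and 481 in leukemic MEP 1 and 2 and 1082 to 1455 in control MEP, and its 5 primary granule markers (Mpo and others) to 22897, against 576 and 811, and 10.1 to 109 in control MEP. The megakaryocyte markers summed to 257 FPKM in that library, 5477 and 4530.2 in the other two, and 4.08 to 111 in control MEP, so the labelled cell type was not marked evenly. Xist, read only from an inactive X chromosome, was at 39.2 to 57.1 FPKM in leukemic MEP 1 and 2 and GFP+ 1 and 2, and at most 0.0904 in the other 8 libraries. Each leukemic group thus held libraries of both sexes and the controls of 1, so sex differs between leukemic and control groups too.

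Changes are differences of log2(FPKM + 1) with their standard error from limma over all 4 groups, called at a Benjamini-Hochberg adjusted p under 0.05. The log2(FPKM + 1) scale understates the change of low genes. In MEP 3 of the 9 genes fell and 0 rose, where 12.3% of all genes tested fell and 13.7% rose. At an unadjusted p under 0.05 the counts were 4 lower and 1 higher, for which no share over all genes was taken. Limma-voom on the whole reads called 4 lower and 0 higher, where it called 1538 lower and 1852 higher of all 11462 genes tested. In marrow 1 gene fell and 0 rose, where 6.03% of genes fell and 3.02% rose. The unadjusted counts were 4 lower and 0 higher, again without a share over all genes. Voom called 1 lower and 0 higher in marrow, against 1103 and 804 of all genes. Groups did not overlap for 4 genes below and 1 above their controls in MEP (19.7% and 21.1% of all genes), and for 4 below and 0 above in marrow (19.6% and 17.6%). The median change of the 9 genes was -0.60 in MEP and -0.25 in marrow, against 0.02 and -0.05 for all genes. Rescaling libraries to equal FPKM totals moved the all-gene median in marrow to -0.25 and the split of marrow calls from 346 higher and 691 lower to 195 and 844.

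**Figure D1:**
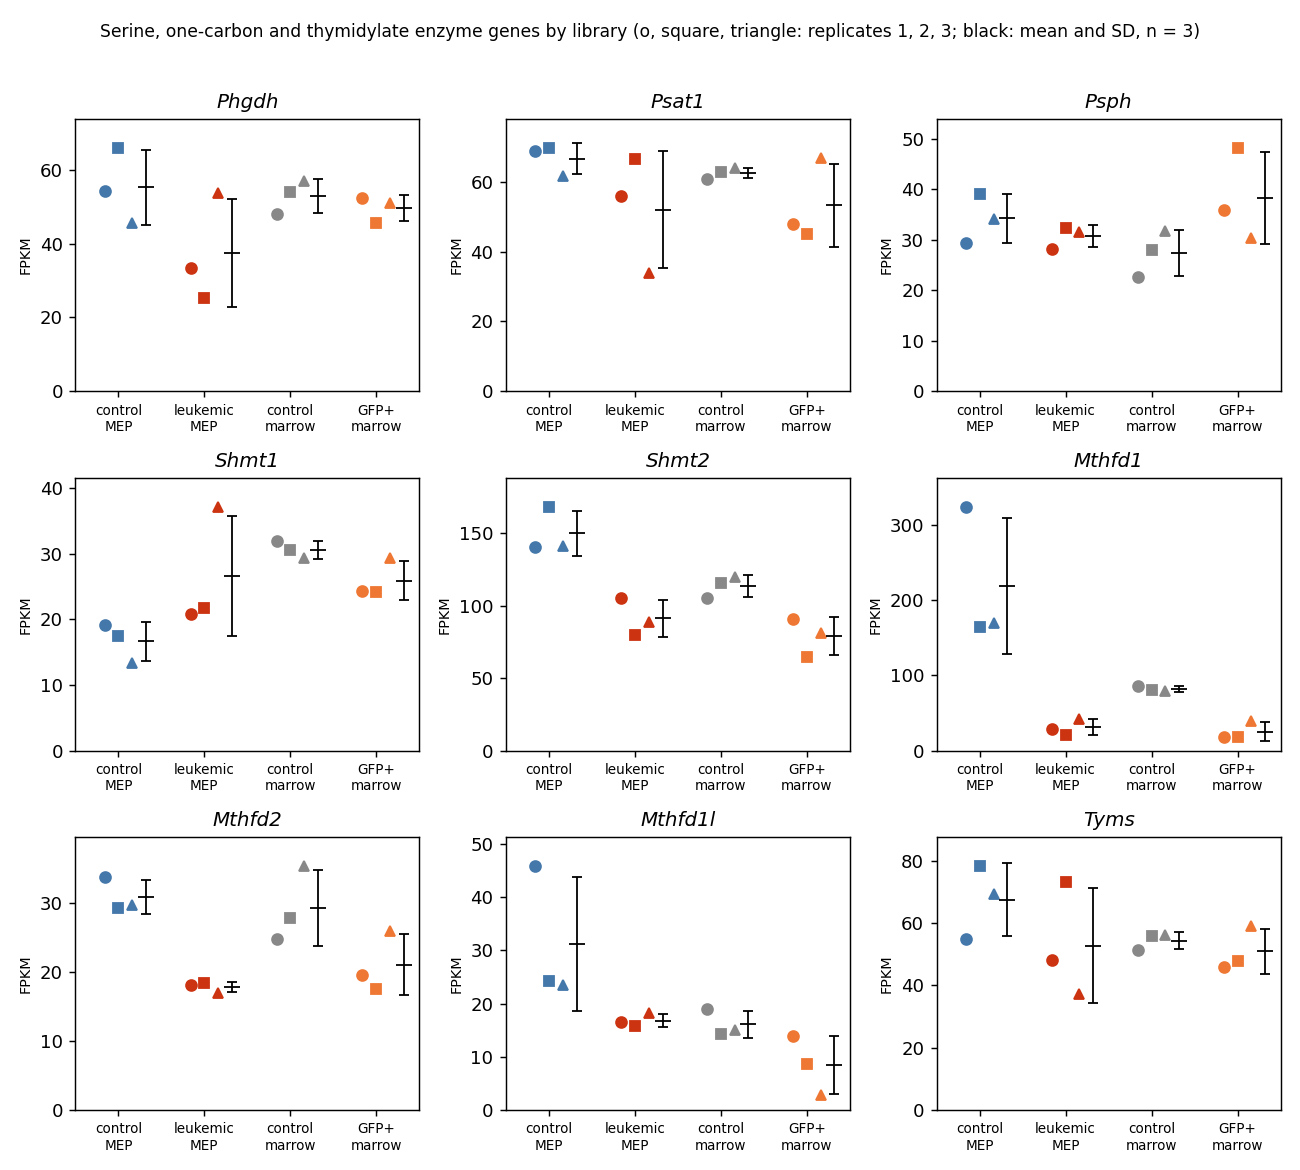
Level of each of the 9 genes (y axis, FPKM, linear and starting at 0, a separate scale for each gene) in every library of the 4 groups, with circles, squares and triangles for replicates 1, 2 and 3 and the group mean ± SD (n = 3) in black. Mthfd1 lies at 164 to 324 FPKM in control MEP and at 17.6 to 42.3 in the 6 leukemic libraries.

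Mthfd1 carries 3 cytosolic activities of folate metabolism in one protein and lies on chromosome 12 from 76255298 to 76319803 on the plus strand (GRCm38). Its level was 324, 164 and 169.7 FPKM in control MEP 1, 2 and 3, and 29.3, 21.2 and 42.3 in leukemic MEP. It was 85.9, 80.9 and 78.9 in control marrow and 18.4, 17.6 and 40.0 in GFP+ marrow. Every leukemic library lay below every control library of both populations, and control MEP 1 stood well above its replicates. The value of leukemic MEP 3 came from 84 reads (exact Poisson 95% interval 33.7 to 52.4 FPKM) and that of GFP+ 2 from 63 (13.5 to 22.5), intervals that cover counting error only. The fall was -2.77 ± 0.36 in MEP (limma, adjusted p = 0.000176) and -1.76 ± 0.36 in marrow (adjusted p = 0.00906). In MEP the call stood under each of 20 alternative settings (-3.01 to -2.27), the first of these values without leukemic MEP 3. In marrow it stood under 19 of 20 and was lost among the low-Xist libraries alone (-1.02, adjusted p = 0.0625), where each leukemic group has 1 library.

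Markers of several cell types also differed between these groups. Erythroid markers summed to 1082 to 1455 FPKM in control MEP, 86.2 to 576 in leukemic MEP, 455 to 662 in control marrow and 38.9 to 121 in GFP+ marrow, with 0 of the 6 at 0 in every library of a group. Primary granule markers went the other way, to 13259.6 to 15949 in control marrow and 28486 to 31915 in GFP+ marrow. Mature neutrophil markers summed to 16.9 to 292 FPKM in control MEP, 62266 to 77166 in control marrow and 61981 to 97467 in GFP+ marrow. In leukemic MEP 1, 2 and 3 they summed to 442, 1651 and 71722 FPKM, so leukemic MEP 3 alone read within the marrow range. B lymphoid markers summed to 1.63 to 4.79 FPKM in control MEP, 30.3 to 77.6 in leukemic MEP, 117 to 145 in control marrow and 75.1 to 115 in GFP+ marrow. Pax5 was at 0 in both MEP groups, and Ebf1 and Pax5 were at 0 in GFP+ marrow. Their part in the result was not tested, and in these bulk samples fewer cells of a type and less RNA per cell cannot be told apart.

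Shmt2, the mitochondrial serine hydroxymethyltransferase, was the most abundant of the 9 in 3 of the 4 groups and second to Mthfd1 in control MEP, where their ranges overlapped, as did those of Shmt2 and Psat1 in GFP+ marrow. It read 140.5, 168 and 141 FPKM in control MEP and 105, 80.1 and 88.6 in leukemic MEP. In control marrow it read 105, 116 and 120.1, and in GFP+ marrow 90.6, 64.7 and 81.0. The leukemic libraries were all below their own controls in both populations. The fall in MEP was -0.72 ± 0.19 (limma, adjusted p = 0.0170). It was lost without control MEP 2 (adjusted p = 0.0665) and when only the MEP libraries were fitted (0.0656). The marrow difference was -0.53 ± 0.19 (adjusted p = 0.112) and was called under equal totals (-0.77, adjusted p = 0.0266).

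Shmt1, the cytosolic form, was the least abundant of the 9 in control MEP, at 19.2, 17.4 and 13.3 FPKM, and read 20.8, 21.8 and 37.1 in leukemic MEP. Marrow values were 31.9, 30.5 and 29.3 in controls and 24.3, 24.1 and 29.3 in GFP+ cells. All leukemic MEP libraries thus lay above their controls and all GFP+ libraries below theirs, the last of them by a margin under the printed rounding. Neither difference passed the test, at 0.61 ± 0.24 in MEP (limma, adjusted p = 0.0847) and -0.24 ± 0.24 in marrow (adjusted p = 0.604). Without leukemic MEP 3, which holds the value of 37.1, the MEP difference was 0.35 (adjusted p = 0.233). The Shmt1/Shmt2 ratio of FPKM within a library, which needs no scaling between libraries, was 0.137, 0.103 and 0.0940 in control MEP and 0.198, 0.272 and 0.419 in leukemic MEP. In marrow it was 0.305, 0.262 and 0.244 in controls and 0.269, 0.372 and 0.362 in GFP+ cells. The MEP groups did not overlap and the marrow groups did.

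Mthfd2, the mitochondrial dehydrogenase and cyclohydrolase, read 33.7, 29.2 and 29.7 FPKM in control MEP and 18.1, 18.4 and 17.0 in leukemic MEP. It read 24.7, 27.8 and 35.3 in control marrow and 19.6, 17.5 and 26.0 in GFP+ marrow. Leukemic MEP formed the tightest of these groups and lay wholly below the controls, whereas the marrow groups overlapped. The fall in MEP was -0.76 ± 0.21 (limma, adjusted p = 0.0200), and it was lost without control MEP 1 (0.0614) or control MEP 3 (0.0540). The marrow difference was -0.46 ± 0.21 (adjusted p = 0.203). Mthfd1l, which releases mitochondrial formate, read 45.8, 24.3 and 23.5 FPKM in control MEP and 16.5, 15.7 and 18.2 in leukemic MEP. It read 19.0, 14.2 and 15.1 in control marrow and 13.8, 8.55 and 2.86 in GFP+ marrow. Leukemic libraries were below their controls in both populations, without passing the test: -0.79 ± 0.42 in MEP (limma, adjusted p = 0.187) and -1.05 ± 0.42 in marrow (adjusted p = 0.146). The marrow difference was called without GFP+ 1 (-1.48, adjusted p = 0.0462) and among the low-Xist libraries (-2.14, adjusted p = 0.00365), both of which give more weight to GFP+ 3, the lowest value. Without GFP+ 3 it was -0.51 (adjusted p = 0.376). Without control MEP 1, which holds the highest value, the MEP difference was -0.48 (adjusted p = 0.473).

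The serine synthesis genes varied less. Phgdh, the entry enzyme, read 54.3, 65.9 and 45.7 FPKM in control MEP and 33.4, 25.4 and 53.7 in leukemic MEP. Its marrow values were 47.9, 54.0 and 57.0 in controls and 52.4, 45.6 and 50.9 in GFP+ cells. Leukemic MEP 3 alone lay within the control range, and with it the MEP difference was -0.60 ± 0.25 (limma, adjusted p = 0.104). Without that library it was -0.89 and called (adjusted p = 0.00694), and voom on the whole reads also called it (-0.83, adjusted p = 0.0147). It was -0.36 without leukemic MEP 2 (adjusted p = 0.296) and -0.03 among the low-Xist libraries (adjusted p = 0.945). In marrow it was -0.09 ± 0.25 (adjusted p = 0.874).

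Psat1, the aminotransferase, read 68.7, 69.7 and 61.6 FPKM in control MEP and 56.0, 66.4 and 33.8 in leukemic MEP. It read 60.9, 62.9 and 63.9 in control marrow and 47.8, 45.1 and 66.9 in GFP+ marrow. Groups overlapped in both populations, with changes of -0.40 ± 0.25 in MEP (limma, adjusted p = 0.254) and -0.25 ± 0.25 in marrow (adjusted p = 0.585). Psph, the phosphatase, read 29.4, 39.1 and 34.2 FPKM in control MEP and 28.2, 32.4 and 31.6 in leukemic MEP. It read 22.7, 27.9 and 31.7 in control marrow and 36.0, 48.2 and 30.4 in GFP+ marrow. It was the only one of the 9 with a higher mean in GFP+ than in control marrow, by 0.45 ± 0.22 (limma, adjusted p = 0.240), and changed by -0.14 ± 0.22 in MEP (adjusted p = 0.665). Psph overlaps Cct6a on the opposite strand, which reached 502 FPKM, and whether counting used strand is not given in the sources used here.

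Tyms, thymidylate synthase, read 55.0, 78.2 and 69.3 FPKM in control MEP and 48.1, 73.1 and 37.1 in leukemic MEP. It read 51.2, 55.8 and 56.1 in control marrow and 45.8, 47.8 and 59.1 in GFP+ marrow. Leukemic and control ranges overlapped in both populations, with changes of -0.39 ± 0.25 (limma, adjusted p = 0.265) and -0.10 ± 0.25 (adjusted p = 0.854). Its pseudogene Tyms-ps, listed separately, reached at most 2.06 FPKM. In the low-Xist libraries alone, where leukemic MEP 3 stands for its group, Tyms (-0.83, adjusted p = 0.0201), Psat1 (-0.96, adjusted p = 0.00440) and Shmt1 (1.13, adjusted p = 0.00525) passed the test in MEP. Without that library Tyms was at -0.17 (adjusted p = 0.637), Psat1 at -0.12 (0.702) and Shmt1 at 0.35 (0.233).

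**Figure D2:**
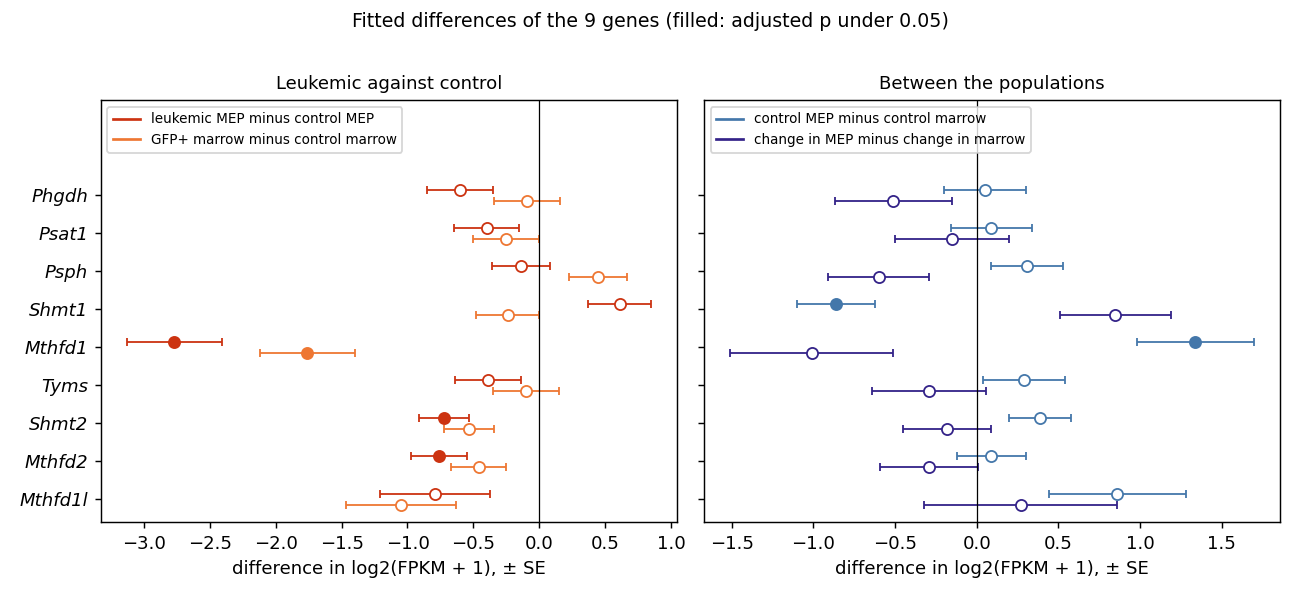
Fitted differences in log2(FPKM + 1) with their standard error (x axis) for the 9 genes, leukemic against control at left, and control MEP against control marrow and the difference of the leukemic changes at right, with filled points at an adjusted p under 0.05. Mthfd1 has the largest falls of the 9, at -2.77 and -1.76, and in MEP Shmt2 and Mthfd2 are the other filled points.

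The size of the Mthfd1 fall changed the order of the levels. Mthfd1 was in place 1 of 9 in control MEP (219 ± 90.6 FPKM, SD, n = 3) and in place 5 in leukemic MEP (30.9 ± 10.6), where it could not be told from its neighbours Phgdh and Psph. It was in place 2 in control marrow (81.9 ± 3.59) and in place 7 in GFP+ marrow (25.3 ± 12.7), between Shmt1 and Mthfd2, with overlapping ranges. Its share of the summed FPKM of the 9 genes was 42.0%, 25.0% and 28.8% in control MEP and 8.24%, 5.98% and 11.8% in leukemic MEP. In marrow the share was 19.1%, 17.2% and 16.2% in controls and 5.28%, 5.50% and 10.3% in GFP+ cells. The sum of the other 8 genes was 419 to 492 FPKM in control MEP, 317 to 333 in leukemic MEP, 363 to 408 in control marrow and 302 to 346 in GFP+ marrow, so it too was lower in every leukemic library than in its controls.

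Ratios within a library set the cytosolic enzyme against its mitochondrial partners. Mthfd1/Mthfd2 was 9.62, 5.62 and 5.72 in control MEP, against 1.61, 1.15 and 2.49 in leukemic MEP. The value of 2.49, leukemic MEP 3, rests on 84 reads of Mthfd1 and 21 of Mthfd2. In marrow it was 3.48, 2.91 and 2.23 in controls and 0.940, 1.01 and 1.54 in GFP+ cells. Leukemic libraries lay below their controls in both populations. Mthfd1/Mthfd1l was 7.07, 6.76 and 7.23 in control MEP, an even ratio although control MEP 1 was high for both genes, and 1.77, 1.35 and 2.33 in leukemic MEP. In marrow it was 4.51, 5.71 and 5.24 in controls and 1.33, 2.05 and 14.0 in GFP+ cells, where the low Mthfd1l of GFP+ 3 made the groups overlap. Tyms/Mthfd1 was 0.351 ± 0.161 in control MEP and 1.99 ± 1.32 in leukemic MEP (SD, n = 3), and 0.666 ± 0.0611 and 2.23 ± 0.662 in marrow, with no overlap. A 2-sided exact permutation test of 3 against 3 libraries cannot go below p = 0.1. Of the 8 tests of 4 ratios in 2 populations, 6 reached it (adjusted p = 0.133), which here states only that the groups did not overlap. The others were Shmt1/Shmt2 in marrow (exact p = 0.20) and Mthfd1/Mthfd1l in marrow (exact p = 0.60). No ratio could pass at this sample size. The ratios were chosen after values were seen, and all but Shmt1/Shmt2 contain Mthfd1, so they restate its fall.

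**Figure D3:**
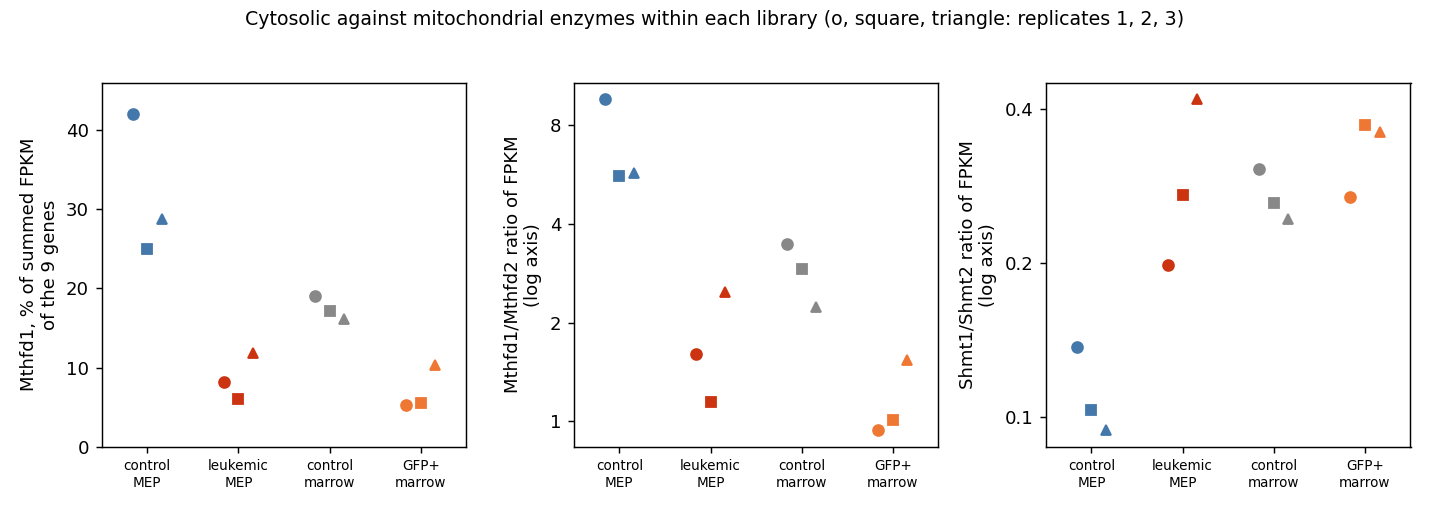
Mthfd1 as a percent of the summed FPKM of the 9 genes (left, linear axis from 0), and the Mthfd1/Mthfd2 and Shmt1/Shmt2 ratios (log axes), in each library of the 4 groups. The Mthfd1 share is 16.2% to 42.0% in the 6 control libraries and 5.28% to 11.8% in the 6 leukemic ones.

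Between the control populations, Mthfd1 was higher in MEP than in unselected marrow by 1.34 ± 0.36 (limma, adjusted p = 0.0237) and Shmt1 lower by -0.86 ± 0.24 (adjusted p = 0.0324). These were 1 gene higher and 1 lower of 9, where 2.63% and 12.3% of all genes were called, and 3 above and 1 below without overlap, where 20.3% and 26.1% were. Shmt2 (0.39 ± 0.19, adjusted p = 0.211) and Mthfd1l (0.86 ± 0.42, adjusted p = 0.211) also read higher in each control MEP library than in each control marrow library without passing the test. The Mthfd1 call was lost without control MEP 1 (1.02, adjusted p = 0.0962) or without any one control marrow library (0.0688 to 0.0766), and the Shmt1 call in 7 of 20 alternatives, equal totals among them (-0.69, adjusted p = 0.0787).

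The leukemic changes of the 2 populations were compared by their difference, MEP minus marrow. None of the 9 genes passed (0 of 9 by limma and 0 by voom), where 4.89% of all genes did by limma. At an unadjusted p under 0.05 there was 1, for which no share over all genes was taken. For Mthfd1 the difference was -1.01 ± 0.50 (limma, adjusted p = 0.331), so its larger fall in MEP was not separated from that in marrow. For Shmt2, Mthfd2 and Mthfd1l it was -0.18 ± 0.27, -0.29 ± 0.30 and 0.27 ± 0.59 (adjusted p from 0.671 to 0.868). Their calls or near-calls in one population are therefore not shown to be limited to it.

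The genes around the 9 were read through 8 lists, 67 genes in all, of which 58 passed the filter. In MEP 3 of the 58 rose and 23 fell (limma), where 13.7% of all genes rose and 12.3% fell, with a median change of -0.80 against 0.02 for all genes. In marrow 0 rose and 8 fell, where 3.02% and 6.03% of all genes did, with a median of -0.47 against -0.05. Without leukemic MEP 3 the counts were 4 and 26 in MEP and 3 and 16 in marrow. All genes then gave 1722 and 1392 of 11462 in MEP and 943 and 1194 in marrow. Fitting only the libraries of each comparison gave 1 and 12 in MEP and 1 and 17 in marrow. All genes then gave 957 and 741 in MEP and 821 and 948 in marrow. At an unadjusted p under 0.05, 4 were higher and 21 lower in marrow, for which no share over all genes was taken. Voom called 2 and 12 there, against 804 and 1103 of all genes. The difference of the changes was called for 0 of the 58 by limma and 0 by voom. At an unadjusted p under 0.05, 2 were higher and 4 lower, again without a share over all genes.

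Of 11 tested genes of the folate cycle and transport list 1 rose and 2 fell in MEP, close to the shares over all genes (13.7% and 12.3%). Fpgs, which adds the glutamates that keep folate in the cell, read 78.8, 88.7 and 67.0 FPKM in control MEP and 28.8, 17.0 and 25.9 in leukemic MEP (-1.69 ± 0.26, limma, adjusted p = 0.000561). Ggh, which removes them, read 8.02, 10.4 and 15.5 in control MEP and 44.0, 56.0 and 51.8 in leukemic MEP (2.10 ± 0.31, limma, adjusted p = 0.000509). Slc19a1, the reduced folate carrier, read 67.7, 71.8 and 60.4 and then 29.7, 21.2 and 28.5 (-1.31 ± 0.21, limma, adjusted p = 0.000770). No leukemic MEP library overlapped a control for these 3 genes, and their calls stood in all 20 alternatives. In marrow Fpgs fell by -1.20 ± 0.26 (limma, adjusted p = 0.0121) and was lost without control marrow 2 (0.0606) or 3 (0.0572). Ggh was at 1.05 ± 0.31 there (adjusted p = 0.0577).

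Of all genes tested 12.3% fell in leukemic MEP and 13.7% rose, the shares beside which the MEP counts of the next lists stand. In purine synthesis, which spends one-carbon units, 5 of 6 genes fell in leukemic MEP, among them Gart (-1.30 ± 0.24, limma, adjusted p = 0.00214) and Ppat (-1.27 ± 0.24, adjusted p = 0.00224). Of 9 nucleotide partners of thymidylate synthase 4 fell, led by the ribonucleotide reductase subunit Rrm2 (-1.21 ± 0.22, limma, adjusted p = 0.00190) and the dUTPase Dut (-1.22 ± 0.24, adjusted p = 0.00299). Both tested glycine cleavage genes fell, Gcsh (-0.83) and Dld (-0.93), and these calls were lost in 6 and 8 of 20 alternatives. In the methionine cycle list Ahcy (-0.91) and Mtrr (-0.95) fell of 6 tested, and these calls were lost in 3 and 13 of 20. In marrow 0 genes of the purine, nucleotide and glycine cleavage lists were called by limma over all 4 groups, where 6.03% of all genes fell. The counts lower were 2, 4 and 0 at an unadjusted p under 0.05 and 1, 1 and 0 by voom. No share over all genes was taken for the unadjusted counts, and voom called 1103 of 11462 genes lower in marrow. With only the marrow libraries fitted 2 purine and 3 nucleotide genes were lower, against 3 and 3 in MEP by the same kind of fit, and without leukemic MEP 3 the marrow counts were 2 and 2. Of all 11462 genes tested these fits called 948 lower in marrow, 741 in MEP and, without leukemic MEP 3, 1194 in marrow. Mtrr was called in marrow (-1.14 ± 0.31, limma, adjusted p = 0.0371, lost in 10 of 20). Among 8 genes of serine transport and use in MEP, Sptlc2 (0.85), a subunit of the enzyme that starts sphingolipid synthesis from serine, and Sfxn3 (1.06) rose, and the mitochondrial serine carrier Sfxn1 (-1.02) fell. These counts lay near the shares over all genes. The Sfxn3 call was lost in 2 of 20 alternatives and those of Sptlc2 and Sfxn1 in 1 each.

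The last lists cover a regulator and the cell cycle. Asns, asparagine synthetase, was 1 of 6 tested genes of the ATF4 response list, a stress program known to include Phgdh, Psat1, Shmt2 and Mthfd2 among its targets. Asns read 426, 377 and 404 FPKM in control MEP and 29.9, 33.1 and 21.7 in leukemic MEP, and 139, 165 and 187 in control marrow and 22.2, 43.3 and 24.9 in GFP+ marrow. It fell by -3.80 ± 0.26 in MEP (limma, adjusted p = 2.01e-06) and -2.45 ± 0.26 in marrow (adjusted p = 0.000121), in all 20 alternatives, more than any of the 9 genes. It was the only one of the 6 that was called in either population, and Atf4 itself read 70.3 ± 13.5 and 74.3 ± 35.2 FPKM in control and leukemic MEP (SD, n = 3, limma, adjusted p = 0.995). These are RNA levels, and ATF4 protein was not measured. The other genes of the list were not even in direction. In marrow Chac1 (1.03 ± 0.63) and Sesn2 (0.84 ± 0.39) read higher, and Atf4 (-0.24), Atf5 (-0.32) and Ddit3 (-0.50) lower, none of them called. Of 10 replication licensing and S phase genes 6 fell in MEP and 5 in marrow, where 12.3% and 6.03% of all genes did, with Cdc6 at -1.83 and -1.37 and Mcm7 at -0.93 and -0.85. Fitting only the libraries compared gave 3 and 7, where 741 and 948 of all 11462 genes were lower. The Mcm7 call in marrow was lost in 5 of 20 alternatives (limma, adjusted p up to 0.0869). Tyms, a gene of S phase itself, was not called in either (-0.39 and -0.10), and nor were Mcm5, Mcm6 and Mki67 of the list. Its difference from the list was not tested.

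**Figure D4:**
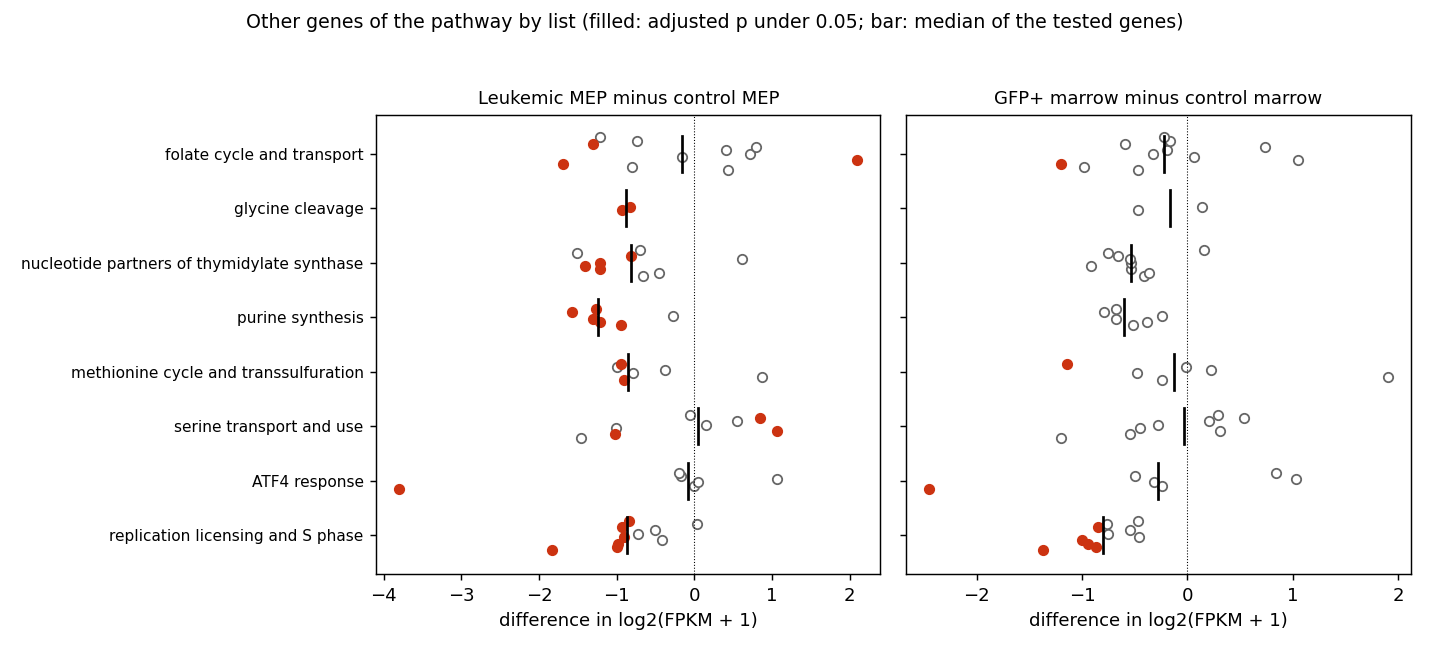
Differences in log2(FPKM + 1) of the tested genes of the 8 lists (one point per gene, filled at an adjusted p under 0.05, bar at the list median) in the MEP and marrow comparisons, with a dotted line at 0. Over the 8 lists, 23 genes are called lower and 3 higher in MEP, and 8 lower and 0 higher in marrow.

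The genes nearest in profile were taken over all 12 libraries from 7390 tested genes with a mean of at least 5 FPKM, by the root mean square (RMS) difference of log2(FPKM + 1) after centring each gene. The profile of Mthfd1 itself has an RMS of 1.29 around its mean. Its nearest genes were Cyth3 (0.23), with means of 53.6, 6.48, 17.4 and 3.74 FPKM in control MEP, leukemic MEP, control marrow and GFP+ marrow, and Slc41a3 (0.27), with 58.6, 7.96, 24.0 and 6.16. Both were high in control MEP and low in both leukemic groups, a likeness to Mthfd1 that follows from how they were chosen. Mthfd1l (own RMS 0.82) was nearest to Exo1 (0.21) and Chd1l (0.23). Shmt2 was nearest to Tuba1b (0.13) and Snrnp70 (0.15), Mthfd2 to Ddx41 (0.16) and Nars (0.18), and Shmt1 to Ppp1r12a and Slc25a12 (0.17 each), all against own RMS values of 0.35 to 0.39. Phgdh was nearest to Poc1a (0.12) and Ube2g2 (0.17), Psat1 to Cdca8 (0.11) and Ctnnbl1 (0.13), Psph to Cnih1 (0.13) and Tmem167 (0.14), and Tyms to Gspt1 and Anp32b (0.13 each). These 4 had own RMS values of 0.25 to 0.34. A gene with an even level lies at a distance equal to the member's own RMS.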

How the data were processed

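The authors deposited 1 table of FPKM values for 24107 genes in 12 libraries. Per the labels' protocols, sorted cells gave Smart-seq2 cDNA and Nextera XT libraries from 250 pg. The submitters' processing notes name CASAVA, bcl2fastq, STAR 2.5.3a, DESeq2 1.18.1 and the build mm10. The sources used here do not name the counter, its strand setting or the annotation. For all 16728 genes above 0, values were whole reads over a gene length and a denominator proportional to a median-of-ratios size factor (tolerance 0.02). Those reads gave the depth, the exact Poisson intervals and a limma-voom alternative.

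Genes with FPKM of at least 1 in 3 libraries were tested with limma-trend (limma 3.58.1, R 4.3.3) on log2(FPKM + 1), with 4 groups in 1 fit and 8 residual degrees of freedom. The fit was tested on simulated data. Named were all 9 genes, the 2 called genes of smallest p per list and direction in MEP and marrow, and the 2 nearest profiles per gene. Atf4 and the 4 ratios were chosen after values were seen. The genes and lists were chosen with earlier results of these data known. Replicate numbers were not taken to pair samples, since not every same-numbered pair had r over 0.1: r was -0.16 to -0.05 in MEP, -0.06 to 0.02 in marrow, 0.07 to 0.5 between controls and 0.09 to 0.22 between leukemic groups. Xist, however, was high in replicates 1 and 2 and low in replicate 3 of both leukemic groups. Whether same-numbered libraries shared an animal is not stated. If they did, the tests across MEP and marrow treat paired libraries as independent.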

Additional observations from a re-analysis of the deposited data

Results flagged for a closer look

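The estimated leukemic change of Shmt1 differed in sign between the populations, at 0.61 ± 0.24 in MEP and -0.24 ± 0.24 in marrow. Neither was called (limma, adjusted p = 0.0847 and 0.604). All 3 leukemic MEP libraries (20.8 to 37.1 FPKM) lay above all 3 control MEP libraries (13.3 to 19.2), as 21.1% of all genes did. All 3 GFP+ marrow libraries lay below their controls, as for 19.6% of all genes, GFP+ 3 by a margin under the printed rounding. The change in MEP minus the change in marrow was 0.85 ± 0.34 on the log2(FPKM + 1) scale (limma, unadjusted p = 0.0294, adjusted p = 0.221), so the difference did not pass the test over all genes. Without leukemic MEP 3 the MEP change was 0.35, against 0.61 with it. The difference passed among the low-Xist libraries alone (1.19, adjusted p = 0.0306), where each leukemic group has 1 library.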

How the results depend on the processing

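Over 711 fits of the 9 genes under alternative settings, 670 kept their direction and side of the threshold, 16 lost the call, 13 gained it and 12 turned direction. The cause was not tested. Of 2976 genes called in MEP, fitting only the 2 groups compared gave 1698 and low-Xist libraries alone 5802 (1938 to 3377 with 1 library left out). Marrow had 1037, against 1769 with its own groups only, 1907 with voom, 3827 at low Xist and 1878 without the 2 libraries under 2 M reads, an alternative chosen after seeing the data (484 to 2137 with 1 library left out). The difference of changes had 560, against 893 with voom, 3895 at low Xist and 1052 without those 2 libraries (261 to 1086). The control populations had 1716, against 3641, 2731, 3635 and 2883 in the order given for marrow (1059 to 2794), and equal totals changed their split from 302 higher and 1414 lower to 592 and 1326. In the low-Xist fit the lone leukemic libraries are assumed to vary like the other groups.

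Of the 9 genes, low-Xist libraries gave 1 higher and 5 lower in MEP, and 1 higher and 1 lower for the difference. Over all genes, too, the low-Xist fit called more genes in both comparisons than the fit of all libraries, as given above. With a lone library in each leukemic group, no conclusion is drawn from the low-Xist calls. Equal totals gave 2 lower in marrow. In the control populations, own groups only and low Xist each gave 2 higher, and equal totals gave 0 lower. With 1 library left out, 2 to 4 were lower in MEP, 1 to 2 in marrow, and 0 to 1 higher and 0 to 1 lower between controls. With the replicate block, the pairing of numbers gave 0 lower between controls (Shmt1, adjusted p = 0.0544), and changed no other call of the 9.

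Directions turned in values that were not called. In marrow at low Xist these were Psat1 (0.10) and Tyms (0.12). For the difference of changes they were Phgdh at low Xist (0.02), Psat1 with equal totals (0.11), without the 2 shallow libraries (0.02), and with 1 library left out (-0.35 to 0.13, turned without leukemic MEP 3 or GFP+ 3, the latter at 0.02), Shmt2 with equal totals (0.08), and Mthfd1l without GFP+ 3 (-0.28, up to 0.69 with another library left out). Between controls they were Phgdh without control MEP 2 (-0.08) or control marrow 1 (-0.02, range -0.08 to 0.18), and Mthfd2 without control marrow 1 (-0.02, up to 0.22). Depth limits leukemic MEP 3 and GFP+ 2, where Mthfd1 had 84 and 63 reads.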
